A study of Mus musculus with 16 samples.

Results

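The 9 genes described here, Fos, Fosb, Fosl2, Jun, Junb, Jund, Atf3, Maff and Mafk, encode basic leucine zipper transcription factors of the AP-1 family and its small Maf relatives. They were taken by name from the 23970 gene symbols measured by RNA-seq in mouse quadriceps, and all 9 were found. The rule that picked them was their names and used no threshold on a measured value, although earlier results of these data were known. Male C57BL/6NTac mice of 16 weeks carried no transgene and were fed a control diet (CON, 10% of kcal from fat) or a high-fat diet (HFD, 60% of kcal from fat) for 10 weeks. The fasted mice gave muscle either at rest (groups CON-pre, HFD-pre) or, for groups CON-post and HFD-post, at 3 h from the end of a graded treadmill run to exhaustion, with 4 mice in each of the 4 groups. The pre-exercise mice had been acclimatised to the treadmill and fasted in the same way, so the groups on a diet differ by the bout and the time after it. The paper reports that mice on the high-fat diet performed worse and ran for a different time, with equal work. Between the exercised groups, diet and running time therefore cannot be told apart.

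AP-1 is a dimer. The Fos proteins (Fos, Fosb and Fosl2, also called Fra-2) cannot pair with themselves and bind DNA with a partner such as a Jun protein, whereas the Jun proteins (Jun, Junb and Jund) can also pair with each other. Atf3 is a stress-induced member that pairs with itself or with Jun proteins and often represses its targets. The small Maf proteins Maff and Mafk lack an activation domain, so that their effect on a gene depends on the partner, such as the CNC factors Nrf2 (Nfe2l2) and Bach1. Many of these genes are immediate early genes, whose transcription starts within minutes of a stimulus without new protein synthesis, and in skeletal muscle contraction is one such stimulus.

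The sequences just upstream of the transcription start are shown for the 5 members whose transcripts rose after exercise on the control diet, to set their motifs side by side, and for Junb as a member that did not pass the test. They are the last 120 bases before the start in RefSeq, assembly GRCm38.p6, written 5′ to 3′ along the gene, with matches to the searched motifs in capitals. Fos lies at chr12:85473770-85473889, plus strand. Jun lies at chr4:95052223-95052342, minus strand, and Atf3 at chr1:191183334-191183453, minus strand. The start of Maff with a motif match closest to it, which is one of 3 in RefSeq, lies at chr15:79347400-79347519, plus strand. Mafk lies at chr5:139791416-139791535, plus strand, and Junb at chr8:84978749-84978868, minus strand.
Fos: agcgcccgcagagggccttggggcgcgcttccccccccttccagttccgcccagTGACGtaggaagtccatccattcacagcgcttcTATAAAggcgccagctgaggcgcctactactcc
Jun: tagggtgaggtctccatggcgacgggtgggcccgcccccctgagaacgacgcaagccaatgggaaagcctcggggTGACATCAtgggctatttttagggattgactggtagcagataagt
Atf3: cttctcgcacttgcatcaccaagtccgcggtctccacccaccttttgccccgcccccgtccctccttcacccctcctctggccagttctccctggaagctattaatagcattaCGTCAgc
Maff: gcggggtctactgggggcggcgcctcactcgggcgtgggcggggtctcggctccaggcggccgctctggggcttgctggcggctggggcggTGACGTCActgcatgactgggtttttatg
Mafk: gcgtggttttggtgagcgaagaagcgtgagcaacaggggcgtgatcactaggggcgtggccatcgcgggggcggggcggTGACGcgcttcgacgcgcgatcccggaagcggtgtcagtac
Junb: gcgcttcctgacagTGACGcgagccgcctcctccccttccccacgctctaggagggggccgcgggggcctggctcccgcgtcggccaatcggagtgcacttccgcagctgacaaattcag

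The motifs were searched in the 250 bases before each of 32544 starts, on both strands unless stated. The cAMP response element TGACGTCA, bound by CREB and ATF dimers, was found in 1.55% of all promoters and among the members at 1 start of Maff, where it begins at -29. Its core TGACG, which also counts every full element, was found in 17.8% of all promoters and in those of Fos (at -129 and -66), Fosb, Junb, Atf3, Maff and Mafk, and not in this window of Fosl2, Jun or Jund. The variant AP-1 site TGACATCA was found in 2.84% of all promoters and at -45 in Jun and at -45 from another start of Maff. The TATA box TATAAA, searched on the coding strand, was found in 7.55% of all promoters and in Fos at -33. The AP-1 site TGACTCA (4.46% of all promoters) and the CArG box bound by serum response factor (1.48%) had no match in the windows of the 9 genes. The TGACG core did not separate the members that rose from those that did not, because Junb holds it and Jun lacks it. The full element, TGACATCA and TATAAA matched only in Maff, Jun and Fos, which rose, and this was not tested. A match in letters is a description and does not show binding.

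Expression was deposited by the authors as FPKM (fragments scaled for transcript length and library size), so levels can be compared between genes. Before exercise Jun was the most abundant member in both diets, with a mean of 15.0 FPKM in CON-pre and 14.1 FPKM in HFD-pre. Mafk, at 4.89 and 5.48 FPKM, and Atf3, at 4.17 and 5.69 FPKM, came next, and their spreads overlapped. Jund, Junb, Fosl2 and Fos lay between 1.34 and 3.01 FPKM, and neighbours in that order did not differ beyond their spread. Maff was at 0.725 FPKM in CON-pre and 0.577 FPKM in HFD-pre, and Fosb was the lowest member, at 0.102 and 0.0861 FPKM. After exercise Atf3 had the highest mean in both diets, at 39.5 FPKM in CON-post and 29.3 FPKM in HFD-post, although its spread overlapped that of Jun, at 35.3 and 27.0 FPKM. The 9 genes together summed to 32.8 ± 6.47 FPKM (SD, n = 4) in CON-pre, 104 ± 28.1 FPKM in CON-post, 34.2 ± 6.27 FPKM in HFD-pre and 78.4 ± 19.4 FPKM in HFD-post. Atf3 alone made up 13.5% of this sum in CON-pre and 37.1% in CON-post, and 16.3% and 36.1% in HFD-pre and HFD-post.

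**Figure D1:**
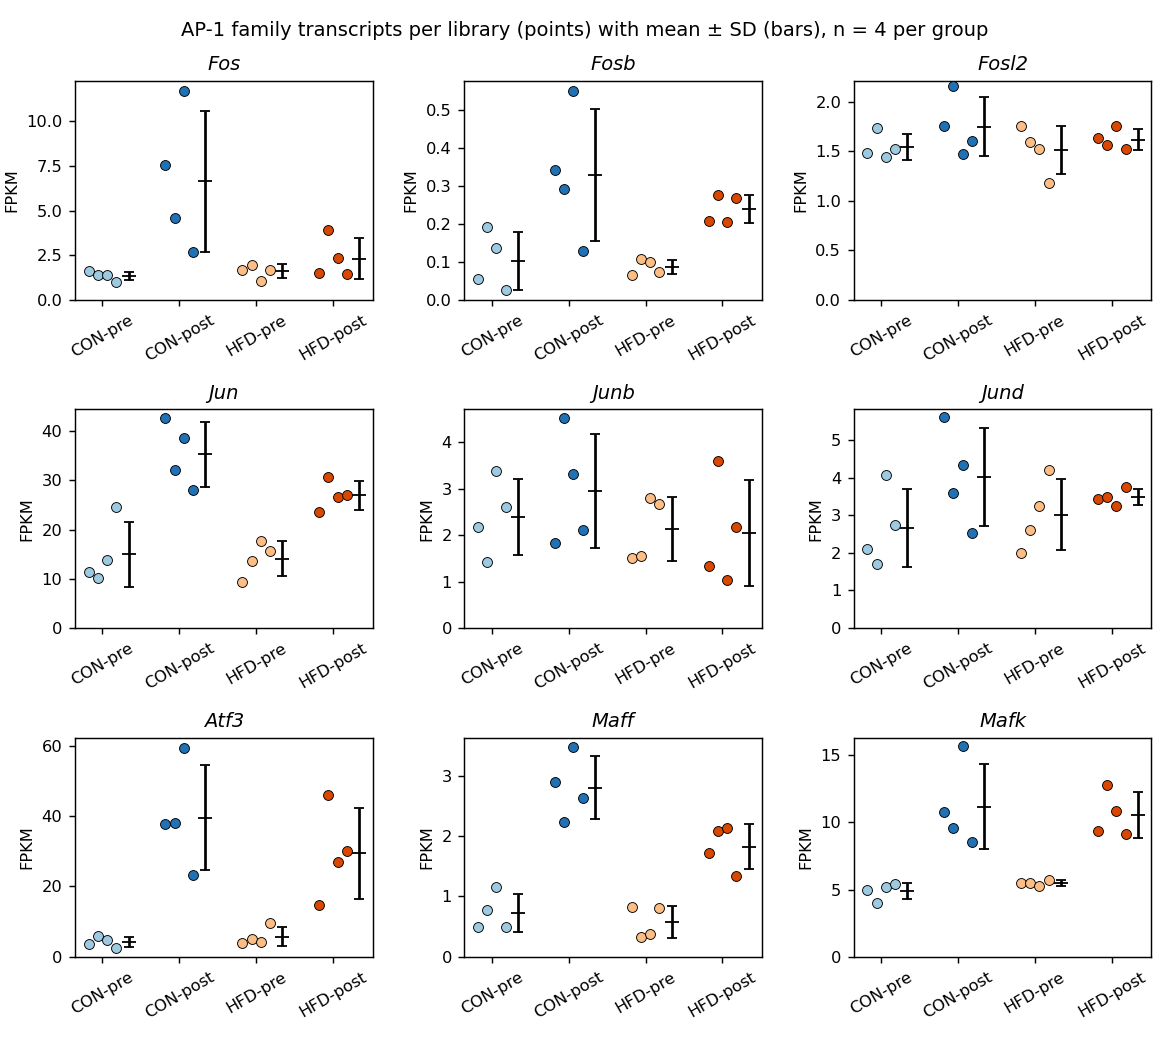
FPKM (y axis, linear, from 0) of each of the 9 genes in every library, by group, with the mean and SD beside the points. On each diet the libraries after exercise lie above those before it without overlap for Jun, Atf3, Maff and Mafk, for Fosb on the high-fat diet only, and for Fos on the control diet only, where the plot shows 2.65 to 11.7 FPKM in CON-post and at most 1.58 FPKM in CON-pre.

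The 11256 genes that averaged 0.5 FPKM or more were fitted with limma on log2(FPKM + 0.5). A DEG is a gene whose p, adjusted by Benjamini-Hochberg over these genes, was under 0.05. On this scale the fold change of low genes is understated. Of the 9 members 8 passed this filter, and Fosb did not. The libraries were alike in total (283575 to 329282 FPKM), and their depth relative to CON-pre replicate 1, read from genes of low expression, was 0.683 to 1.15, with a median of 0.791 in HFD-pre and of at least 0.929 in the other groups. Skeletal muscle markers such as Acta1 and Ckm were abundant throughout, as the tissue label states, and their sum was 54800 to 79308 FPKM. In whole muscle, fewer cells of a type and less RNA per cell cannot be told apart.

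The first question was which members responded to the bout on the control diet. In CON-post against CON-pre 5 of the 8 members tested rose, namely Fos, Jun, Atf3, Maff and Mafk, and none fell, while 0.968% of all genes tested were called higher. The other 3, Fosl2, Junb and Jund, were not called. The same 5 genes had FPKM ranges that did not overlap between the groups, which held in this direction for 3.29% of all genes tested. The median log2 fold change of the 8 members was 1.18, beside -0.006 over all genes tested. When the fit was limited to the 8 control diet libraries, the calls of Fos and Jun were lost (adjusted p = 0.0545 and 0.0538), which left 3.

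The second question was whether the same members responded on the high-fat diet. In HFD-post against HFD-pre 3 of the 8, Atf3, Maff and Mafk, rose and none fell, while 0.489% of all genes tested were called higher. Jun had a log2 fold change of 0.95 with an adjusted p of 0.0988, and Fos one of 0.36 with an adjusted p of 0.722. Ranges that did not overlap were found for Jun, Atf3, Maff and Mafk among the 8 and for Fosb, and for 4.72% of all genes tested in this direction. The median log2 fold change of the 8 members was 0.62, beside 0.04 over all genes tested. Without HFD-pre replicate 2, HFD-post replicate 2 or HFD-post replicate 3, only Atf3 remained called, and without HFD-pre replicate 3 Maff was no longer called. In the first 3 of these fits the log2 fold change of Maff was 1.01, 1.07 and 1.07 and that of Mafk 0.87, 0.78 and 0.85, beside 1.13 and 0.87 with all libraries. The calls over all genes fell from 61 to 21, 21 and 24 in the same 3 fits. When the fit was limited to the high-fat diet libraries, Jun was called as well. It was also called without CON-pre replicate 4, which enters this comparison only through the shared estimate of the spread (adjusted p = 0.0206).

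**Figure D2:**
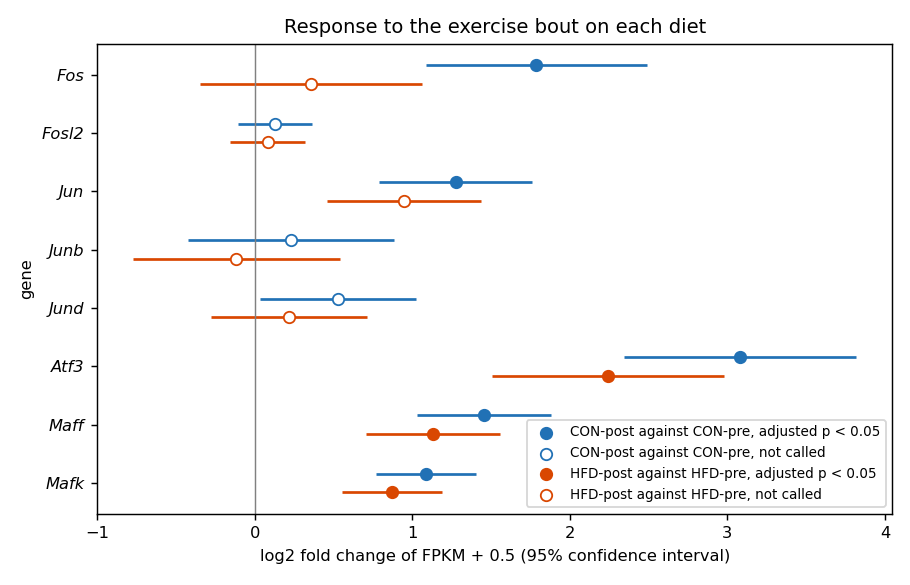
Log2 fold change of FPKM + 0.5 after exercise (x axis) for the 8 members tested (y axis), with 95% confidence intervals from limma, on the control diet (blue) and the high-fat diet (orange). Filled symbols mark an adjusted p under 0.05, which 5 members reached on the control diet and 3 on the high-fat diet. For Fos the interval on the high-fat diet ends at 1.06 and that on the control diet begins at 1.08.

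Atf3, the stress-induced factor, had the largest response. It was at 3.65, 5.87, 4.76 and 2.41 FPKM in CON-pre and at 37.8, 37.9, 59.3 and 23.1 FPKM in CON-post. All 4 exercised mice thus lay well above all 4 at rest. The log2 fold change of 3.08 had a standard error of 0.35 and a limma adjusted p of 1.06e-04, and only 0.0178% of the genes tested had a larger one. On the high-fat diet Atf3 was at 3.94, 5.08, 4.17 and 9.54 FPKM in HFD-pre and at 14.7, 45.9, 26.8 and 29.9 FPKM in HFD-post. The groups again did not overlap, although HFD-pre replicate 4 and HFD-post replicate 1 came close to each other. The log2 fold change was 2.24 (standard error 0.35, adjusted p = 0.00556), and Atf3 remained called under each of the 27 alternatives in both diets.

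Fos, the inducible partner of the Jun proteins, had the largest log2 difference between the diets after exercise of the 8 members tested, which was not called. It was at 1.58, 1.38, 1.39 and 1.02 FPKM in CON-pre and at 7.58, 4.60, 11.7 and 2.65 FPKM in CON-post. All 4 exercised mice were above those at rest, but they were spread over a 4.42-fold range. The log2 fold change of 1.79 had a standard error of 0.33 and a limma adjusted p of 0.00902. On the high-fat diet Fos was at 1.69, 1.95, 1.06 and 1.68 FPKM in HFD-pre and at 1.51, 3.93, 2.32 and 1.45 FPKM in HFD-post. Here 2 of the 4 exercised mice lay above all mice at rest and the other 2 lay within their range. The log2 fold change of 0.36 had a 95% confidence interval of -0.35 to 1.06, which spans 0.

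Fosb, a Fos protein of which a truncated form accumulates with repeated stimulation in brain, was too low for the filter. It was at 0.0542, 0.192, 0.136 and 0.0247 FPKM in CON-pre and at 0.343, 0.291, 0.551 and 0.128 FPKM in CON-post. On the high-fat diet it was at 0.0664, 0.107, 0.0989 and 0.0726 FPKM before and at 0.209, 0.277, 0.206 and 0.268 FPKM after exercise. The groups overlapped through CON-post replicate 4 on the control diet and did not overlap on the high-fat diet. An exact two-sided permutation test of the means, chosen after the values had been seen, gave p = 0.0857 (control diet) and p = 0.0286 (high-fat diet), the latter being the smallest p that 4 against 4 can give. After adjustment over the 4 Fosb comparisons these were 0.171 and 0.114. When limma was run without the filter, on 17643 genes, Fosb had log2 fold changes of 0.45 and 0.34 (adjusted p = 0.173 and 0.382) on the control and high-fat diet, and over both diets one of 0.39 that was called (adjusted p = 0.0348). Over both diets, whether Fosb is counted among the rising members thus depends on the filter, while on neither diet alone was it called.

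Fosl2 had the highest mean of the Fos family in CON-pre and was not called after exercise. It was at 1.49, 1.74, 1.45 and 1.52 FPKM in CON-pre and at 1.76, 2.16, 1.48 and 1.60 FPKM in CON-post. On the high-fat diet it was at 1.76, 1.59, 1.52 and 1.18 FPKM before and at 1.64, 1.56, 1.76 and 1.52 FPKM after exercise. The groups overlapped in both diets. Its log2 fold changes were 0.13 and 0.08 (adjusted p = 0.737 and 0.830), with 95% confidence intervals of -0.11 to 0.37 and -0.16 to 0.32, and so ended below 1.08, where that of Fos on the control diet began.

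Jun, the most abundant of the 9 before exercise, was at 11.4, 10.1, 13.9 and 24.6 FPKM in CON-pre and at 42.7, 32.1, 38.5 and 28.0 FPKM in CON-post. CON-pre replicate 4 stood above the other mice at rest and just below the lowest exercised mouse. The log2 fold change of 1.27 had a standard error of 0.23 and a limma adjusted p of 0.00779. On the high-fat diet Jun was at 9.34, 13.7, 17.7 and 15.6 FPKM before and at 23.6, 30.8, 26.7 and 27.0 FPKM after exercise. These groups did not overlap either, although the change did not pass the test as given above (standard error 0.23). Over both diets together Jun rose by a log2 fold change of 1.11 (adjusted p = 7.62e-04).

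Junb and Jund, the other Jun proteins, are weaker activators than Jun in many settings. Junb was at 2.18, 1.42, 3.38 and 2.61 FPKM in CON-pre, at 1.84, 4.53, 3.32 and 2.12 FPKM in CON-post, at 1.52, 1.55, 2.80 and 2.67 FPKM in HFD-pre and at 1.35, 3.60, 1.04 and 2.19 FPKM in HFD-post. The ranges of the groups overlapped, and the log2 fold changes after exercise were 0.23 on the control and -0.12 on the high-fat diet (adjusted p = 0.840 and 0.924). Jund was at 2.10, 1.71, 4.07 and 2.73 FPKM in CON-pre, at 5.61, 3.60, 4.33 and 2.53 FPKM in CON-post, at 1.99, 2.61, 3.23 and 4.21 FPKM in HFD-pre and at 3.43, 3.47, 3.25 and 3.75 FPKM in HFD-post. The groups overlapped in both diets. On the control diet Jund had a log2 fold change of 0.53 with an unadjusted limma p of 0.0382 and an adjusted p of 0.417, and on the high-fat diet one of 0.22 (adjusted p = 0.766).

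Maff and Mafk, the small Maf genes among the 9, both rose in both diets. Maff was at 0.484, 0.771, 1.15 and 0.491 FPKM in CON-pre and at 2.89, 2.23, 3.47 and 2.62 FPKM in CON-post, and at 0.816, 0.318, 0.368 and 0.805 FPKM in HFD-pre and at 1.72, 2.09, 2.14 and 1.34 FPKM in HFD-post. No exercised mouse overlapped with a mouse at rest on the same diet. The log2 fold changes were 1.45 and 1.13 (standard error 0.20 each, limma adjusted p = 8.86e-04 and 0.0173). Mafk was at 4.98, 4.02, 5.16 and 5.40 FPKM in CON-pre and at 10.8, 9.58, 15.7 and 8.57 FPKM in CON-post. In HFD-pre it was at 5.47, 5.47, 5.25 and 5.73 FPKM, the group with the smallest ratio of highest to lowest value of any member (1.09), and in HFD-post at 9.37, 12.8, 10.9 and 9.11 FPKM. The groups were again apart in both diets, with log2 fold changes of 1.08 and 0.87 (standard error 0.15 each, adjusted p = 8.86e-04 and 0.0133). Over both diets together, which uses 8 mice against 8, the 5 members Fos, Jun, Atf3, Maff and Mafk were called, beside 2.95% of all genes called higher, and they remained called under all 26 alternatives of that comparison, which also called Fosb when no filter was used.

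The make-up of the transcript pools is given next, as shares of the summed FPKM of the members in each family. Fos was 44.7% ± 4.96 (SD, n = 4) of the Fos family transcripts in CON-pre and 72.3% ± 11.4 in CON-post, while Fosl2 went from 52.1% to 24.0%. On the high-fat diet Fos was 49.6% before exercise (39.5 to 57.3% over the 4 libraries) and 53.0% after it (44.8 to 68.2%). The share of Jun within the Jun family was 74.1% ± 7.14 in CON-pre and 83.5% ± 2.68 in CON-post, and 73.3% ± 3.12 and 83.1% ± 2.16 in HFD-pre and HFD-post. Maff made up 12.9% ± 5.05 and 20.4% ± 2.41 of the summed Maff and Mafk transcripts on the control diet and 9.34% ± 3.86 and 14.7% ± 1.57 on the high-fat diet. Another small Maf gene, Mafg, is not among the 9 and was left out of this sum. Its means were 10.8 FPKM in CON-pre, 14.4 FPKM in CON-post, 11.8 FPKM in HFD-pre and 14.0 FPKM in HFD-post. Between pre and post libraries the shares of Fos on the high-fat diet, of Jun on the control diet and of Maff on both diets overlapped. These shares are descriptions of the same values and were not tested.

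**Figure D3:**
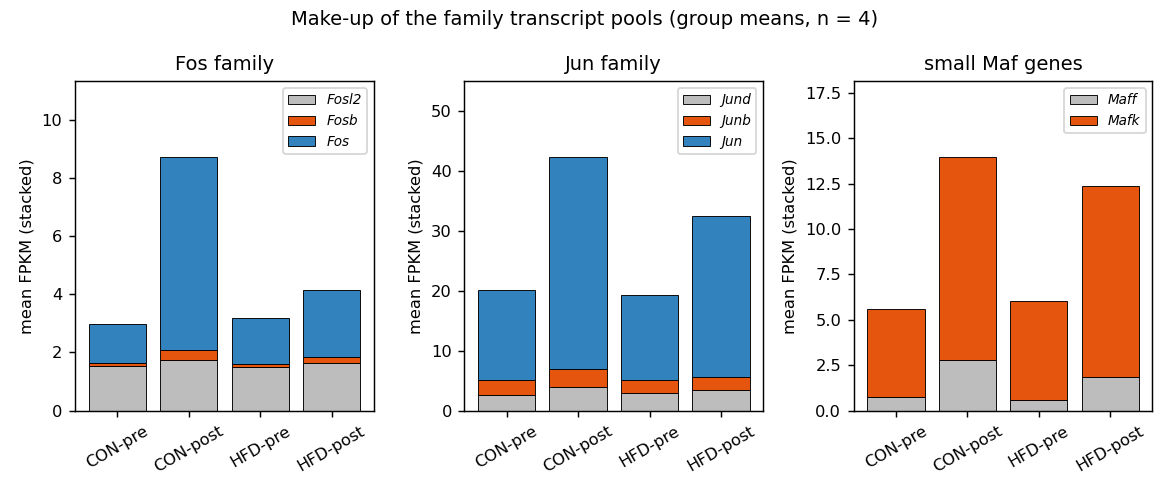
Mean FPKM (y axis, stacked, from 0) of the Fos family, Jun family and small Maf genes in the 4 groups, each colour being 1 gene. The Fos family reaches 8.72 FPKM in CON-post and 4.16 FPKM in HFD-post, and the Jun family 42.3 and 32.5 FPKM. The small Maf panel holds only Maff and Mafk, which reach 14.0 and 12.4 FPKM.

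The third question was whether diet changed the members themselves. In HFD-pre against CON-pre 0 of the 8 members were called by limma, and 0 had an unadjusted p under 0.05, where 0.346% of all genes were called and 8.25% had an unadjusted p under 0.05. Their adjusted p-values were between 0.858 and 0.989. Their log2 fold changes lay between -0.19 for Maff and 0.38 for Atf3, and the ranges of all 9 genes overlapped. The 95% confidence interval of Atf3, the largest of these differences, was -0.36 to 1.12.

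In HFD-post against CON-post 0 of the 8 members were called by limma, beside 0.151% of all genes, and 2 of them had an unadjusted p under 0.05, as did 6.29% of all genes. All 8 had lower fitted values in HFD-post, with a median log2 fold change of -0.41 beside 0.00 over all genes. Fos had the largest difference, at -1.25 (standard error 0.33, 95% confidence interval -1.96 to -0.55, unadjusted p = 0.00163, adjusted p = 0.241), and 3 of the 4 HFD-post mice were below all CON-post mice. Over the alternatives the adjusted p of Fos was between 0.0532 and 0.638. Maff, with a log2 fold change of -0.51 (unadjusted p = 0.0220, adjusted p = 0.669), was the only member whose HFD-post range, of 1.34 to 2.14 FPKM, lay wholly below that of CON-post, of 2.23 to 3.47 FPKM. Such a separation in this direction was seen for 1.28% of all genes tested. The direction of the smaller differences was not stable, since those of Fosl2, Jund and Mafk changed sign when a single library was left out.

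Whether the response to exercise differed between the diets was tested as the interaction of diet and exercise, for which limma called 0 of the 8 members and 0% of all genes. An unadjusted p under 0.05 was reached by 1 member, Fos, and by 3.16% of all genes. The interaction of Fos was -1.43 on the log2 scale (standard error 0.47, 95% confidence interval -2.42 to -0.44, unadjusted p = 0.00763, adjusted p = 0.99994). For Atf3 it was -0.84 (interval -1.88 to 0.21, unadjusted p = 0.108). The estimates of all 8 were below 0, with a median of -0.32 beside 0.04 over all genes, but all 8 rest on the same 16 libraries. A call on the control diet and none on the high-fat diet, as for Fos and Jun, was therefore not shown to be a difference between the diets.

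Mice of a group differed from each other, and some libraries were high or low in many members at once. CON-post replicate 3 had the highest value of its group for 5 of the 9 genes (Fos, Fosb, Atf3, Maff and Mafk), and CON-post replicate 4 the lowest for 6 (Fos, Fosb, Jun, Jund, Atf3 and Mafk). HFD-post replicate 2 was highest for 6 (Fos, Fosb, Jun, Junb, Atf3 and Mafk). That library also stood apart in neutrophil markers, since 5 of the 6 listed markers were in the table and summed to 146 FPKM there and to 1.02 to 6.37 FPKM in the other 3 HFD-post libraries. Its blood markers summed to 652 FPKM, against 250 to 345 FPKM in those 3 and up to 629 FPKM in CON-pre. The sum of the neutrophil markers was 6.48 to 65.3 FPKM in CON-pre, 1.92 to 18.4 FPKM in CON-post and 1.74 to 87.8 FPKM in HFD-pre, and S100a8 was at 0 in 3 and Mpo in 10 of the 16 libraries. Without HFD-post replicate 2 the log2 fold change on the high-fat diet was 0.11 for Fos, 1.99 for Atf3 (adjusted p = 0.0241), 1.07 for Maff (0.0787) and 0.78 for Mafk (0.0646). The part of the neutrophil and blood markers in these values was not tested further.

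The summed satellite cell markers were higher in each CON-post library than in each CON-pre library, as the 5 rising members were. The 4 listed markers, Pax7, Myf5, Calcr and Sdc4, summed to 5.75 to 7.68 FPKM in CON-pre and to 8.32 to 10.2 FPKM in CON-post, and to 5.90 to 7.82 and 6.46 to 9.21 FPKM in HFD-pre and HFD-post. Most of the sum was Sdc4, at 6.29 ± 0.781 and 8.20 ± 0.634 FPKM in CON-pre and CON-post (adjusted p = 0.212), while the defining Pax7 did not exceed 0.390 FPKM in any library and Calcr was at 0 in 1 library. Their part in the members' response was not tested. Of the other markers, Des of muscle (log2 fold change 0.23) and Pecam1 of endothelium (0.36) were called higher after exercise over both diets. Pecam1 was also called on the high-fat diet alone. Their lists did not rise with them, since 2 of 10 muscle and 2 of 5 endothelial markers were higher over both diets (medians -0.07 and -0.01). On the high-fat diet 2 of 5 endothelial markers were higher (median -0.12). The adipocyte genes Lep and Cfd were called in opposite directions between the diets (log2 fold changes 2.34 and -1.97 at rest). The list sums of muscle, slow fibre, adipocyte, macrophage, blood, endothelial, fibroblast and tendon markers overlapped between pre and post libraries on each diet.

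To describe how the members vary among mice of a group, the group means were subtracted and the 28 pairs of members tested were correlated over the 16 libraries. The correlation was positive for 20 pairs, and 0 pairs passed an adjusted p under 0.05 (permutation within groups), while 4 had an unadjusted p under 0.05. The highest were Fos with Mafk (r = 0.83, rho = 0.69, permutation p = 0.00448, adjusted p = 0.119), Fos with Atf3 (r = 0.69, rho = 0.45, permutation p = 0.00849, adjusted p = 0.119) and Jun with Jund (r = 0.64, rho = 0.73, permutation p = 0.0437, adjusted p = 0.301). Without the 2 libraries farthest from the median of the first gene these were 0.64, 0.55 and 0.72. Fosl2 had a negative r with each of the 7 others, the lowest being -0.49 with Jund. The points share the library scaling, and the relations that did not pass the test are given as values only.

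**Figure D4:**
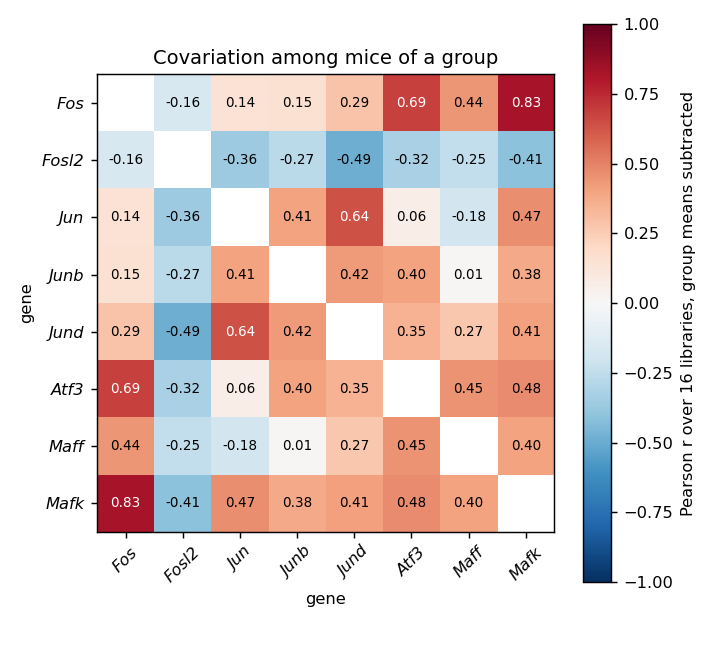
Pearson r (colour, from -1 to 1, and printed value) of each pair of the 8 members tested, over the 16 libraries with the group means subtracted. Fos with Mafk (0.83) and Fos with Atf3 (0.69) are the highest, and the row of Fosl2 is negative throughout.

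The genes whose log2 values were most like those of Fos over the 16 libraries, by Pearson r and without subtraction of group means, were Midn (r = 0.91), Gabarapl1 (0.89), a gene of the autophagosome membrane, and Hspa1b (0.88), a heat shock gene whose reads cannot be told from its near-identical copy Hspa1a. With group means subtracted these were 0.78, 0.68 and 0.80. For Atf3 they were Enah (0.98) and Xirp1 (0.98), which encode proteins of the actin cytoskeleton, and Otud1 (0.97), and 0.90, 0.89 and 0.82 with group means subtracted. Xirp1 went from 28.1 ± 7.66 to 146 ± 44.3 FPKM on the control diet and from 42.8 ± 7.38 to 109 ± 37.2 FPKM on the high-fat diet. These genes were picked as the most similar of all genes tested, so the r values carry no test.

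Relatives that were not among the 9 were examined as lists. Of 13 other AP-1 and Maf genes 8 were tested, at 1.31 to 28.6 FPKM by group mean, and 0 were called by limma in any contrast, with 1 at an unadjusted p under 0.05 in each diet after exercise and 2 over both diets. An unadjusted p under 0.05 was reached by 11.1% of all genes tested on the control diet, 11.7% on the high-fat diet and 18.5% over both diets. Fosl1, Batf, Batf2, Batf3 and Nrl did not pass the filter. Of 11 CREB and ATF relatives 10 were tested and 0 called after exercise, with 2 at an unadjusted p under 0.05 in each diet and 5 over both diets. The CNC partners of the small Maf proteins were called over both diets for 2 of the 4 tested, both higher. Bach1, a repressor that pairs with small Maf proteins, had a log2 fold change of 0.56 (limma adjusted p = 0.00720), and Nfe2l2 (Nrf2), an activator of antioxidant genes, one of 0.31 (adjusted p = 0.0206).

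Among the genes upstream of AP-1, 18 MAP kinases and their activators were tested and 1 was called over both diets, the p38 activator Map2k3, with a log2 fold change of 0.33 (adjusted p = 0.0252). Of 13 regulators of Fos transcription 1 was called over both diets, Mef2c, a muscle transcription factor that was lower by a log2 fold change of -0.20 (adjusted p = 0.0199). Of 7 regulators of Jun protein 1 was called, Trib1, an adaptor for protein degradation, which rose on the control diet by a log2 fold change of 1.04 (adjusted p = 0.00179). Of all genes tested 3.86% were called in either direction over both diets, 1.11% on the control diet and 0.542% on the high-fat diet. An unadjusted limma p under 0.05 was reached over both diets by 2 of the 18, 7 of the 13 and 2 of the 7 genes, beside 18.5% of all genes. On the control diet these counts were 1, 5 and 2, beside 11.1%, and on the high-fat diet 1, 3 and 2, beside 11.7%. In each of these 3 lists the median log2 fold change after exercise was between -0.03 and 0.10 in either diet.

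Among the genes downstream, 15 of 22 with known AP-1 sites were tested, and Hbegf, a growth factor of the EGF family, rose in both diets. It went from 4.05 ± 0.907 to 13.5 ± 2.45 FPKM on the control diet and from 4.81 ± 0.386 to 14.3 ± 4.06 FPKM on the high-fat diet, log2 fold changes of 1.63 and 1.45 (adjusted p = 7.40e-05 and 8.25e-04). Over both diets the cell cycle inhibitor Cdkn1a was also called higher (0.56, adjusted p = 0.0125), and no gene of the list was called lower. The medians of the list were 0.00 and 0.13 on the control and high-fat diet. Of 11 NRF2 and small Maf target genes tested, Srxn1, which repairs oxidised peroxiredoxins, was called after exercise. It went from 10.2 ± 0.362 to 35.2 ± 11.6 FPKM and from 9.75 ± 2.35 to 26.1 ± 8.76 FPKM, log2 fold changes of 1.68 and 1.35 (adjusted p = 8.39e-04 and 0.0133). At rest catalase (Cat) was higher on the high-fat diet by a log2 fold change of 0.55 (adjusted p = 0.0458), the only call of these lists between the diets.

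The other immediate early genes gave a mixed picture, with 4 of 16 tested called higher on the control diet, 3 on the high-fat diet and 5 over both, and none called lower, while 0.968%, 0.489% and 2.95% of all genes tested were called higher. The orphan nuclear receptor Nr4a3 rose from 1.20 ± 0.423 to 13.7 ± 5.01 FPKM on the control diet and from 0.433 ± 0.224 to 14.0 ± 3.23 FPKM on the high-fat diet (log2 fold changes 3.03 and 3.96, adjusted p = 3.24e-05 and 6.13e-07). Cyr61, a matricellular protein, and the antiproliferative Btg2 were called in both diets as well, with log2 fold changes of 1.87 and 1.55 on the control and 1.32 and 1.14 on the high-fat diet. Egr1, a zinc finger factor often induced with Fos, was called on the control diet (1.51, adjusted p = 0.0455) and had a log2 fold change of 1.26 on the high-fat diet (adjusted p = 0.143). Myc was called only over both diets together (0.80, adjusted p = 0.00927). The median log2 fold change of these 16 genes was 0.44 on the control and 0.23 on the high-fat diet, against 1.18 and 0.62 for the 8 AP-1 members.

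**Figure D5:**
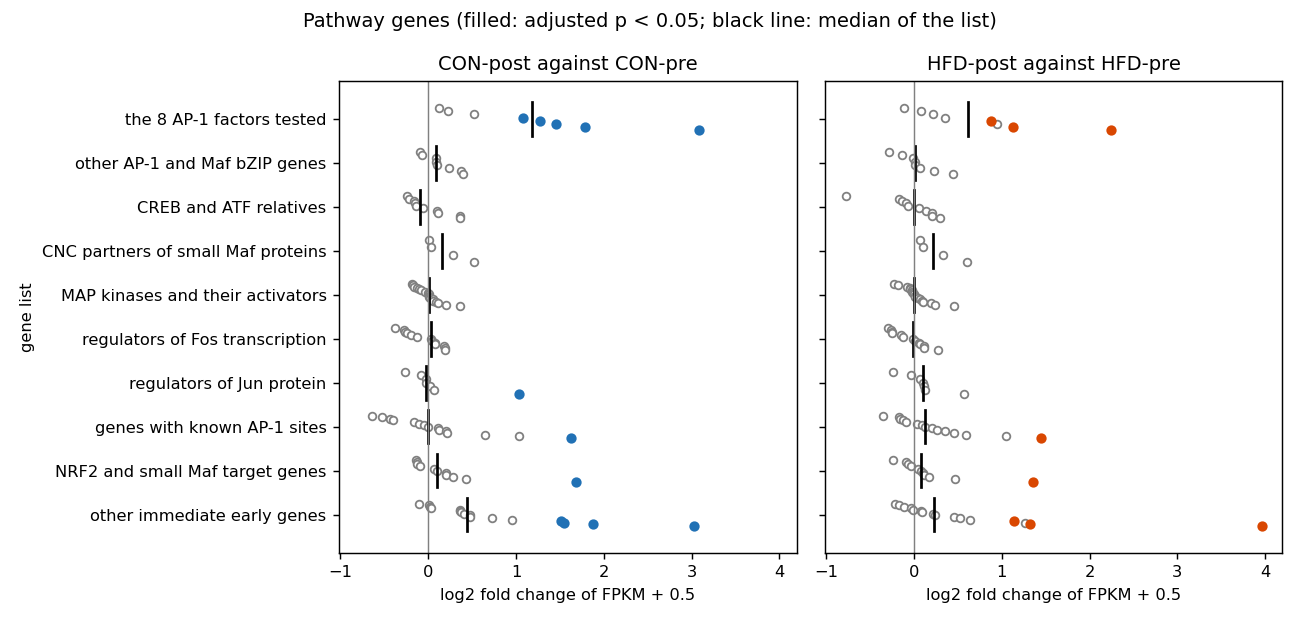
Log2 fold change of FPKM + 0.5 after exercise (x axis) of every gene tested in the 8 AP-1 members and 9 related lists (y axis), on the control diet (left) and the high-fat diet (right). Filled points are DEG and the black line is the median of a list, which is 1.18 and 0.62 for the AP-1 members and at most 0.44 for any other list.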

How the data were processed

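RNA-seq libraries of polyA RNA from quadriceps were prepared by the authors with a stranded mRNA kit and sequenced on a HiSeq instrument, and per the labels and the Methods reads were checked with FastQC, aligned to mm9 with TopHat and quantified with Cufflinks. Versions are not given in the sources used here. The authors deposited 1 column of FPKM per mouse, so no count model was used and the depth of each library is known only as the relative depth read from genes with at most 0.5 FPKM, beside an approximate number of reads per sample in the Methods.

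The table held 24487 entries. The 27 entries with names turned into dates were left out (0.0771% of FPKM), and entries that shared a symbol (260 symbols) were added up, giving 23970 symbols. Each of the 9 members had 1 entry. Genes that averaged 0.5 FPKM or more were fitted with limma 3.58.1 (R 4.3.3) on log2(FPKM + 0.5), using a mean-variance trend and 1 model of the 4 groups without covariates, and with Benjamini-Hochberg adjustment over 11256 genes. Fosb was tested with exact permutation, and pairs of members with 100000 permutations of libraries within groups. Sums, permutations and plots used scipy 1.17.1, pandas 2.3.3, numpy 2.4.6 and matplotlib 3.10.9 under Python 3.11.15, and the code was tested on simulated data.

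The members, gene lists and tests were chosen with earlier results of these data known. Genes named outside the members are those of the lists called in a contrast (at most the 4 lowest adjusted p of a list and contrast) and the 3 genes most correlated with Fos and with Atf3. A gene that this rule would name is not reported here. Myc, Mafg, the relatives below the filter and the marker genes were named after their values were seen. The alternatives were pseudocounts of 0.1 and 1, no filter and a filter at 1 FPKM, 3 other scalings, no trend, array weights, a replicate block, only the groups compared, an adjusted p under 0.1, and leaving out each library.

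Promoters are from RefSeq GRCm38.p6, which held all 9 members with 11 starts. The Methods name mm9, but 692 of 692 loci given with the study overlap their gene in GRCm38.p6 and 114 do so in mm9. No position was taken from the expression table.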

Additional observations from a re-analysis of the deposited data

How the results depend on the processing

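Of 1280 values under the alternatives, which cover 8 members in 6 contrasts, 1247 kept their direction and their side of the threshold. In CON-post against CON-pre 5 members were called, and 3 when only the groups compared were fitted. In HFD-post against HFD-pre 3 were called, and between 1 and 4 with a library left out. Jun was added to these 3 when only the groups compared were fitted. Over both diets 5 were called, and 6 without the filter, which adds Fosb, and 0 were called in the other contrasts under every alternative. The correlation of pairs gave 0 calls of 28 also with a pseudocount of 1 and with median-of-ratios scaling.

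Over all genes, 125 were called in CON-post against CON-pre (109 higher), and 181 with array weights (146 higher). With upper-quartile scaling 140 were called (102 higher), with quantile normalization 155 (114 higher) and 81 when only the groups compared were fitted. In HFD-post against HFD-pre 61 were called (55 higher), 37 without the filter, and 60 (40 higher) with either scaling, or 54 (41 higher) with median-of-ratios scaling and 76 (68 higher) with array weights. Over both diets 435 were called (332 higher), 537 with upper-quartile scaling (262 higher), 532 with quantile normalization (287 higher) and 488 with median-of-ratios scaling (308 higher). That comparison gave 591 with array weights (457 higher), 303 without the filter (242 higher) and 328 with a replicate block (262 higher). In HFD-pre against CON-pre 39 were called (27 higher), 63 with array weights (36 higher) and 35 when only the groups compared were fitted (17 higher), and in HFD-post against CON-post 17 (14 higher) and 2 in that fit. With a library left out these counts were 88 to 187, 21 to 78, 246 to 567, 21 to 45 and 5 to 16. The interaction gave 0 calls, and at most 1 with a library left out.

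Changes of sign were seen only for values that were not called. In HFD-pre against CON-pre Fosl2 was 0.0280 with quantile normalization and 0.00219 with array weights, and with a library left out between -0.0904 and 0.0524. Jun was 0.0159 with array weights and between -0.19 and 0.22 with a library left out, and Junb between -0.31 and 0.0252. With a library left out, in HFD-post against HFD-pre Fosl2 was between -0.00281 and 0.14 and Junb between -0.38 and 0.0893. In HFD-post against CON-post Fosl2 was between -0.14 and 0.00587, Jund between -0.32 and 0.0219 and Mafk between -0.16 and 0.12. The interaction of Fosl2 was between -0.13 and 0.0377, and Junb over both diets was between -0.0758 and 0.16. The cause was not tested.

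The replicate numbers are shared between groups, but same-numbered libraries did not deviate together (r between -0.220 and 0.213, median -0.022, over 0.1 in 5 of 24 pairs). With a replicate block 5 and 3 members were called on the control and high-fat diet, as without it, and it changed no call of a member.

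With 4 mice per group p-values measure the spread between these mice, and only 1 time point after exercise was sampled. A log2 scale with a pseudocount understates the change of Maff, and the filter keeps Fosb out of the fit. Transcript levels do not give the amount of the proteins or their phosphorylation.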
